A study of Mus musculus with 26 samples.

Results

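The breakdown of branched-chain amino acids was followed in visceral fat through 10 genes: *Bcat2*, *Bckdha*, *Bckdhb*, *Dbt*, *Ivd*, *Mccc1*, *Mccc2*, *Pcca*, *Pccb* and *Hibadh*. They were taken by name, as the rows of both count tables whose symbol is one of these, and each name matched 1 row, so the set is 10 of 39017 genes. The RNA came from the epididymal fat of male wild type C57BL/6J mice and was sequenced separately for adipocytes, which float after collagenase digestion, and for stromal vascular cells (SVCs), the pellet of immune, vascular and progenitor cells. Lean mice ate a diet with 10% fat (LFD) for 12 weeks, obese mice a diet with 60% fat (HFD) for 12 weeks, and formerly obese mice (SW) spent 9 weeks on HFD and a further 3 weeks on LFD, all from 9 to 10 weeks of age. The labelled columns give 3 adipocyte libraries for each diet, and 1 LFD, 2 HFD and 3 SW libraries for SVCs. Because LFD SVCs have a single library, no test was made against it.

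Leucine, isoleucine and valine are essential amino acids whose breakdown runs inside mitochondria. *Bcat2* encodes the mitochondrial aminotransferase of the first, reversible step. *Bckdha* and *Bckdhb* encode the alpha and beta subunits of E1, and *Dbt* the E2 core, of the branched-chain ketoacid dehydrogenase (BCKDH) complex, which carries out the irreversible step shared by all these amino acids. After that step the routes divide. *Ivd* (isovaleryl-CoA dehydrogenase) and *Mccc1* and *Mccc2* (the biotin-carrying and the other subunit of methylcrotonyl-CoA carboxylase) belong to the leucine branch, *Hibadh* (3-hydroxyisobutyrate dehydrogenase) to the valine branch, and *Pcca* and *Pccb* (propionyl-CoA carboxylase) handle the propionyl-CoA left by isoleucine and valine. White fat is known as a site of this breakdown, and in adipocytes its products can feed the tricarboxylic acid cycle and fatty acid synthesis.

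Library totals ran from 5781902 to 23725647 counts. Levels are given as CPM, counts scaled to a library size that is corrected for composition (TMM), within a fraction unless stated otherwise. The 10 adipocyte marker genes summed to 10283 to 45072 CPM in adipocyte libraries and to 583 to 1290 CPM in SVC libraries, scaled together, and no marker of that list was at 0 in any group. The SVC HFD libraries stood apart from each other: in library 411, 33.5% of counts came from the mitochondrial genome and 3.09% from hemoglobin genes, against 6.34% and 0.287% in library 212 (libraries carry the numbers of the count tables). Counts of the 10 genes that rest on these libraries are therefore given with and without each. A gene is called where its adjusted p (Benjamini-Hochberg over all genes of the fit) in the quasi-likelihood test of edgeR is under 0.05. No label says which mouse a library came from, so the p-values measure the spread between these libraries.

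In RefSeq, 9 of the 10 genes (all but *Dbt*) matched a promoter window, from 250 bases before to 50 bases after a transcript start, with 12 windows in all. 4 windows are printed because their genes mark the range of what follows: *Ivd* had the largest HFD difference in adipocytes and *Pcca* the smallest, and *Bckdha* and *Bckdhb*, subunits of 1 enzyme, had very unequal levels in SVCs. They are written 5′ to 3′ in the direction of the gene (GRCm38.p6), with each CCAAT box (CCAAT, or ATTGG on the other strand) in capitals.
Ivd promoter, chr2:118861744-118862043, plus strand: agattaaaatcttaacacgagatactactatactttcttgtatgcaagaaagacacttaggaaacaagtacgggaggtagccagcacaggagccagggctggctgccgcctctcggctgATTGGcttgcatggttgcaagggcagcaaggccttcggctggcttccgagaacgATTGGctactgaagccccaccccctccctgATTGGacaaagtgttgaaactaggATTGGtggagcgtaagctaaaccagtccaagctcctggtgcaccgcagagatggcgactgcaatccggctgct
Bckdha promoter, chr7:25658712-25659011, minus strand: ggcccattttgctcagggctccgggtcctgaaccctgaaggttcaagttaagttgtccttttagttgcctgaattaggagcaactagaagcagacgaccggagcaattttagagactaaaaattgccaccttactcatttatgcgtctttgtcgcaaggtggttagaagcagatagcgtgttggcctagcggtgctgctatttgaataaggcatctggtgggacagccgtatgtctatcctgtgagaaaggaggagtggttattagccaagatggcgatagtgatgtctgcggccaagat
Bckdhb promoter, chr9:83924887-83925186, plus strand: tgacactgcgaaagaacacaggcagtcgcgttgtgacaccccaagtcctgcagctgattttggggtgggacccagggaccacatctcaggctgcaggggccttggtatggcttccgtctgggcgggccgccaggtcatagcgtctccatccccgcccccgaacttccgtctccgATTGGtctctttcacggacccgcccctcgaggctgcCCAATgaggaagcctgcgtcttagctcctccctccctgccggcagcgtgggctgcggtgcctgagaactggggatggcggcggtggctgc
Pcca promoter, chr14:122534078-122534377, plus strand: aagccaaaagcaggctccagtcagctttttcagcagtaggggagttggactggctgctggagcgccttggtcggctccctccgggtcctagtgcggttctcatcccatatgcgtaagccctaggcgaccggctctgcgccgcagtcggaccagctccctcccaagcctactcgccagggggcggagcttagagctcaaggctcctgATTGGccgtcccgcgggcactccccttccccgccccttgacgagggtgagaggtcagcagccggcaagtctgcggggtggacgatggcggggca
The *Ivd* window held 4 CCAAT boxes, that of *Bckdhb* 2, that of *Pcca* 1 and that of *Bckdha* 0. Across the genes, 8 of 12 windows (6 of 9 genes) held at least 1, against 37.4% of all 32851 windows of this length. The GC box (GGGCGG) was in 4 of 12 windows against 35.7%, the nuclear receptor half-site (AGGTCA) in 4 against 16.3%, the E-box (CACGTG) in 1 against 7.15%, and the NRF1 core (GCGCATGCG) in 1 against 1.75%, each searched on both strands. *Bcat2* and *Bckdha* held none of these motifs. A match is a description of letters and not of a bound site.

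Adipocytes of obese mice had lower levels of nearly the whole set. Of the 10 genes, 9 were lower in HFD than in LFD adipocytes (edgeR, adjusted p under 0.05) and 0 were higher, where 25% of the 14461 genes tested were called lower and 26.5% higher. The median log2 fold change of the 10 genes was -0.99, against -0.03 over all genes tested. In the same 9 genes every HFD library lay below every LFD library, which held for 30.5% of all genes tested. Mean HFD levels ranged from 35.1% of the LFD mean for *Ivd* to 75.4% for *Pcca*, the exception. In bulk RNA, fewer cells of a type and less RNA per cell cannot be told apart. In the same libraries 8 of 10 adipocyte markers were lower in HFD (median log2 fold change -1.28; summed CPM, both fractions scaled together, 10283 to 17368 in HFD against 27971 to 45072 in LFD), and 11 of 11 macrophage markers were higher (median 3.36; summed CPM 8905 to 10381 against 628 to 1139). Endothelial (5 of 6), mesothelial (4 of 6) and erythroid markers (4 of 4) were lower too, and 4 of 7 fibroblast and progenitor markers were higher. The part of these shifts in the fall of the set was not tested.

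*Bcat2* (chr7:45570153-45589711, plus strand; gene positions are those of GENCODE M21 on GRCm38) stood at 167, 213 and 255 CPM in the LFD adipocyte libraries 404, 405 and 406. It was at 73.2, 101 and 81.1 CPM in the HFD libraries 401, 402 and 403, and at 162, 154 and 177 CPM in the SW libraries 407, 408 and 409. All HFD libraries lay below all others, while SW and LFD overlapped. HFD against LFD came to a log2 fold change of -1.32 (SE 0.18, adjusted p = 0.000233), and SW against HFD to 0.95 (SE 0.17, adjusted p = 0.00668).

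*Bckdha* (chr7:25629946-25658981, minus strand) followed the same course at the shared dehydrogenase step, with 149, 173 and 241 CPM in LFD, 66.3, 98.7 and 80.9 CPM in HFD and 143, 159 and 165 CPM in SW adipocytes. It fell by 1.19 on the log2 scale in HFD (SE 0.20, adjusted p = 0.000852) and was higher in SW than in HFD by 0.92 (SE 0.20, adjusted p = 0.01002). Its partner *Bckdhb* (chr9:83925145-84124240, plus strand) was at 63.1, 68.2 and 91.0 CPM in LFD, 26.8, 45.7 and 29.1 CPM in HFD and 40.4, 62.4 and 64.7 CPM in SW. Here SW overlapped both other groups, with 1 library inside the HFD range. *Bckdhb* fell by 1.12 in HFD (SE 0.24, adjusted p = 0.00377), and its rise in SW, 0.72 (SE 0.24), passed the threshold narrowly (adjusted p = 0.0465). That call was lost when only the compared groups were fitted (adjusted p = 0.0605), without the filter on low counts (0.0675) and on leaving out any of 6 of the 9 libraries, up to an adjusted p of 0.154 without HFD library 403.

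*Dbt* (chr3:116513070-116549981, plus strand), the core of the complex, had 43.1, 42.5 and 65.0 CPM in LFD, 29.4, 33.9 and 30.6 CPM in HFD and 29.6, 43.7 and 39.5 CPM in SW adipocytes. The LFD and HFD ranges were separate, and the SW range spanned the gap between them. *Dbt* fell by 0.68 in HFD (SE 0.19, adjusted p = 0.0137, and 0.0567 without LFD library 406), and the SW to HFD difference of 0.27 was not called (95% interval -0.15 to 0.69).

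In the leucine branch, *Ivd* (chr2:118861954-118882909, plus strand) gave the widest separation: 173, 184 and 242 CPM in LFD, 59.8, 85.4 and 65.0 CPM in HFD and 107, 135 and 138 CPM in SW. The 3 diets did not overlap, with SW between the other two. *Ivd* fell by 1.51 on the log2 scale in HFD (SE 0.18, adjusted p = 0.000137), was higher in SW than in HFD by 0.85 (SE 0.18, adjusted p = 0.0101, and 0.0512 without HFD library 403) and was the only member called lower in SW than in LFD, by -0.66 (SE 0.18, adjusted p = 0.0329). The last call was lost on leaving out any of 5 of the 6 libraries compared, with adjusted p between 0.0536 and 0.119.

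*Mccc1* (chr3:35959312-36000678, minus strand) was at 98.8, 94.96 and 132 CPM in LFD, 52.4, 79.9 and 56.1 CPM in HFD and 63.8, 79.2 and 91.6 CPM in SW. *Mccc2* (chr13:99948530-100015639, minus strand) was at 62.5, 58.5 and 79.8 CPM in LFD, 29.5, 47.4 and 33.1 CPM in HFD and 39.2, 48.3 and 53.2 CPM in SW. For both subunits every LFD library lay above all HFD and SW libraries, and SW overlapped HFD. *Mccc1* fell by 0.78 (adjusted p = 0.00861) and *Mccc2* by 0.86 (adjusted p = 0.00491) in HFD, and neither was called between SW and HFD (0.32 and 0.35).

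*Hibadh* (chr6:52546228-52640389, minus strand), of the valine branch, had 193, 186 and 251 CPM in LFD, 109, 155 and 128 CPM in HFD and 123, 174.5 and 167 CPM in SW. LFD lay above both other groups, which overlapped. The HFD difference was -0.68 (SE 0.19, adjusted p = 0.0123, and 0.0524 without LFD library 406), and the SW to HFD difference of 0.25 was not called.

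The 2 subunits of propionyl-CoA carboxylase differed from each other. *Pccb* (chr9:100982032-101034898, minus strand) was at 170.5, 171 and 228 CPM in LFD, 72.7, 104 and 82.0 CPM in HFD and 139, 136 and 139 CPM in SW, with no overlap between any of the diets. It fell by 1.14 in HFD (SE 0.16, adjusted p = 0.000361) and was higher in SW by 0.68 (SE 0.16, adjusted p = 0.0147), a call lost without HFD library 401 (0.0572) or 403 (0.0678). *Pcca* (chr14:122534324-122891100, plus strand) was at 86.7, 65.2 and 90.7 CPM in LFD, 49.2, 78.1 and 55.8 CPM in HFD and 39.4, 60.7 and 66.1 CPM in SW. All 3 groups overlapped. None of its differences was called, with -0.40 for HFD against LFD (95% interval -0.91 to 0.10, adjusted p = 0.164) and -0.14 for SW against HFD (-0.64 to 0.37), a sign that turned to 0.05 without HFD library 402 or SW library 407.

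**Figure D1:**
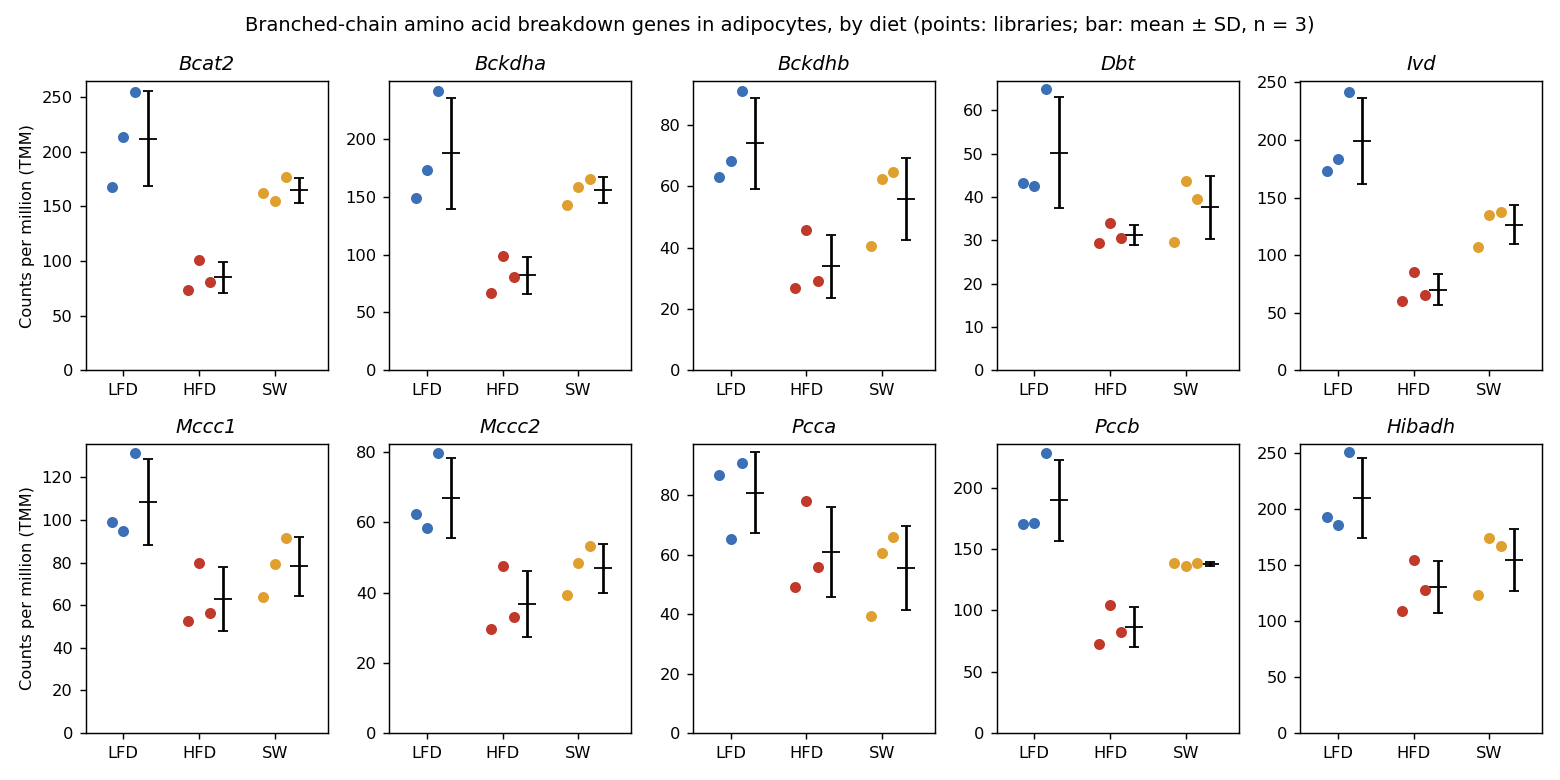
CPM (TMM, linear axis from 0) of each of the 10 genes in adipocytes by diet, 1 point per library with the mean ± SD beside it (n = 3). HFD libraries lie below LFD libraries in 9 panels, and *Pcca*, with HFD from 49.2 to 78.1 and LFD from 65.2 to 90.7 CPM, is the panel where they overlap.

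After the diet switch, part of the set was higher again. Of the 10 genes, 5 were higher in SW than in HFD adipocytes (*Bcat2*, *Bckdha*, *Bckdhb*, *Ivd* and *Pccb*) and 0 were lower, against 15.6% of all genes tested called higher and 15.9% lower. The median log2 fold change of the 10 was 0.51, against 0.01 over all genes tested. All SW libraries were above all HFD libraries for 4 genes (*Bcat2*, *Bckdha*, *Ivd* and *Pccb*), as for 23.3% of all genes. The number called higher was 3 without HFD library 401 (6.81% of all genes), 2 without HFD library 403 (4.25%) and 6 without HFD library 402 (12.7%). Adipocyte markers moved the same way, with 6 of 10 higher (median 0.88; summed CPM, both fractions scaled together, 24369 to 25507 in SW), while 5 of 11 macrophage markers were lower (median -0.47; summed CPM 6439 to 9344 in SW), and their part in the rise was not tested.

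Set against lean mice, mean SW levels were between 63.4% (*Ivd*) and 83.0% (*Bckdha*) of the LFD mean. All 10 log2 fold changes were below 0 (median -0.45, against 0.00 over all genes tested), but 1 of 10, *Ivd*, was called lower and 0 higher, where 6.18% of all genes were lower and 10.9% higher. Every SW library lay below every LFD library for 5 genes (*Ivd*, *Mccc1*, *Mccc2*, *Pccb* and *Hibadh*), which was so for 17.5% of all genes. The comparisons of SW with HFD and of SW with LFD share the SW libraries, as those of HFD and SW with LFD share the LFD libraries. With LFD set against HFD and SW jointly, 9 of 10 genes were higher in LFD (all but *Pcca*, adjusted p = 0.0788), and 0 were lower, against 19.4% and 20.7% of all genes tested. Without LFD library 406 this count was 4, namely *Bcat2*, *Bckdha*, *Ivd* and *Pccb* (12.9% of all genes). Between SW and LFD 10 of 11 macrophage markers were higher (median 2.73), 6 of 6 endothelial and 3 of 6 mesothelial markers were lower, and 2 of 10 adipocyte markers were lower (median -0.59). For LFD against HFD and SW jointly 8 of 10 adipocyte markers were higher (median 0.85) and 10 of 11 macrophage markers lower (median -3.18), and the part of these shifts was not tested.

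**Figure D2:**
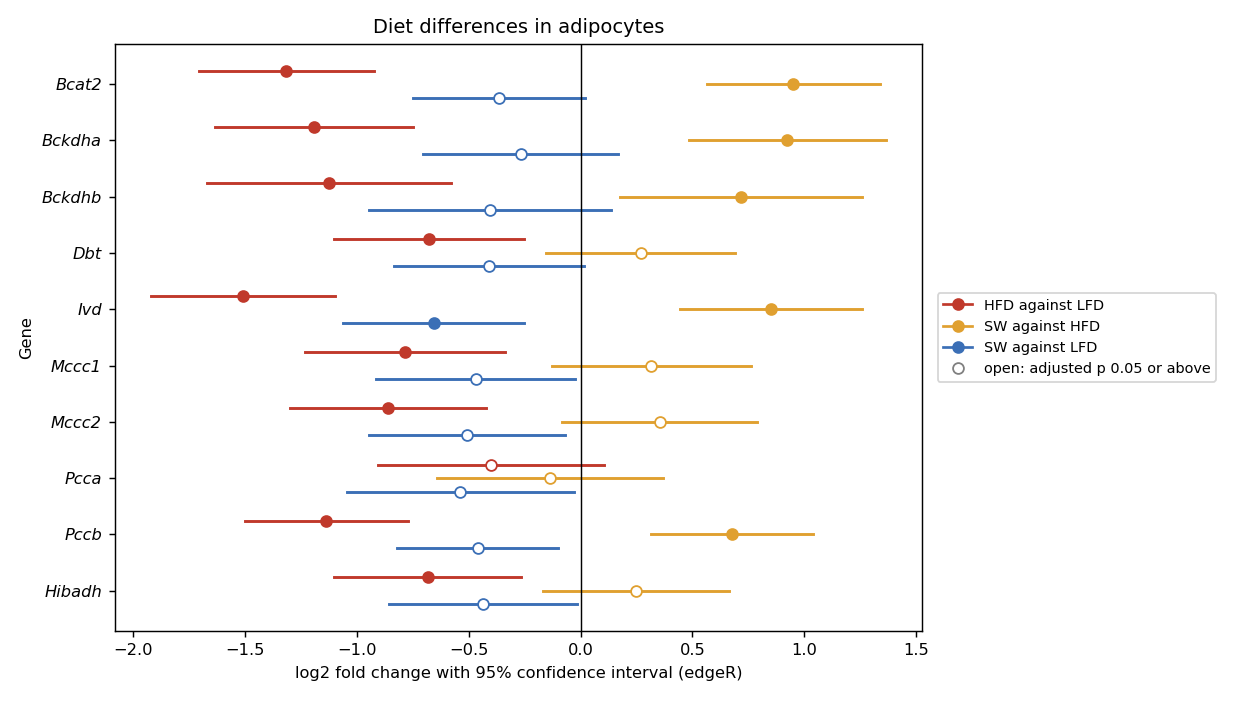
Log2 fold changes with 95% confidence intervals (horizontal axis) of the 10 genes (vertical axis) in adipocytes for the comparisons of HFD with LFD, SW with HFD and SW with LFD, with filled points for adjusted p under 0.05. The HFD against LFD points run from -1.51 for *Ivd* to -0.40 for *Pcca*, and those of SW against LFD lie between 0 and the HFD points in all genes but *Pcca*.

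Libraries of 1 diet differed from each other in the same direction across genes. LFD library 406 had the highest LFD level in 10 of 10 genes, HFD library 402 the highest HFD level in 10 of 10 and HFD library 401 the lowest in 10 of 10. SW library 407 was the lowest of its group in 8 of 10. Summed adipocyte markers (both fractions scaled together) were also highest of their diet in libraries 406 (45072 CPM) and 402 (17368 CPM), and lowest of HFD in 401 (10283 CPM). Macrophage markers were lowest of their diet in 406 (628 CPM) and 402 (8905 CPM). Library 407 had the highest SW sum of both macrophage (9344 CPM) and adipocyte markers (25507 CPM). The part of these differences was not tested. The mean profile of the 10 genes, in log2 CPM centred on each gene's mean, was 0.32, 0.33 and 0.77 in LFD, -0.73, -0.18 and -0.58 in HFD and -0.22, 0.11 and 0.18 in SW. Each of the 10 genes is itself part of this mean profile. By the root mean square difference from it over the 9 adipocyte libraries, *Mccc2* (0.079 log2 units) and *Mccc1* (0.10) were closest among them and *Pcca* (0.33) farthest. Among 7855 other genes (mean log2 CPM of 4 or more), the nearest were *Echs1* (0.076), *Ppm1m* (0.076), *1600014C10Rik* (0.077), *Mlycd* (0.082) and *Mknk2* (0.082). *Echs1*, *Ppm1m* and *1600014C10Rik* lay closer to the profile than any of the 10 genes. *Echs1* encodes the mitochondrial enoyl-CoA hydratase, which also acts in the isoleucine and valine branches, and *Mlycd* encodes malonyl-CoA decarboxylase.

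Levels of different genes were compared per kilobase of the principal transcript, with both fractions scaled together. In LFD adipocytes *Bcat2* (107 ± 23.2 CPM per kb, SD, n = 3), *Hibadh* (102.5 ± 18.6) and *Bckdha* (88.2 ± 23.5) were highest and overlapped, followed by *Pccb* (73.0 ± 13.5), which overlapped *Bckdha*. *Ivd* (48.5 ± 9.62), *Bckdhb* (44.9 ± 9.51) and *Mccc1* (39.4 ± 7.72) came next, each overlapping its neighbour, then *Mccc2* (28.1 ± 5.02) and *Pcca* (27.8 ± 4.74), with *Dbt* (13.6 ± 3.61) lowest and apart. *Dbt*, the E2 core, was also lowest in HFD (8.56 ± 0.706) and SW adipocytes (10.2 ± 1.97). In HFD *Hibadh* (64.6 ± 11.9) led, clear of *Bcat2* (43.3 ± 7.61), and *Ivd* (17.3 ± 3.46) stood eighth of 10, overlapping the genes next to it.

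Subunits of the same complex were compared by their ratio within each library. The ratio of counts per kb of *Bckdha* to *Bckdhb* was 1.83, 1.96 and 2.05 in LFD, 1.92, 1.67 and 2.15 in HFD and 2.75, 1.97 and 1.98 in SW adipocytes, with overlap throughout. *Mccc1* to *Mccc2* stayed within 1.37 to 1.54 in all 9 adipocyte libraries. *Pcca* to *Pccb* was 0.455, 0.341 and 0.356 in LFD, 0.606, 0.671 and 0.609 in HFD and 0.254, 0.399 and 0.426 in SW, so that every HFD library was above every LFD and SW library. In log2 units HFD exceeded LFD by 0.72, and SW lay below HFD by -0.84. *Dbt* to *Bckdhb* likewise rose from 0.305, 0.278 and 0.319 in LFD to 0.488, 0.331 and 0.468 in HFD, a log2 difference of 0.50, and was 0.327, 0.313 and 0.272 in SW (-0.48 against HFD). Each of these 4 differences, and that of *Mccc1* to *Mccc2* between HFD and LFD (0.09), had p = 0.1 in a two-sided exact permutation test, the smallest that 3 against 3 allows. Adjusted over the 8 exact permutation tests made, p was 0.16, and no test of this size could pass the threshold. The *Bckdha* to *Bckdhb* differences were -0.03 (p = 0.9, exact) and 0.21 (p = 0.4, exact).

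**Figure D3:**
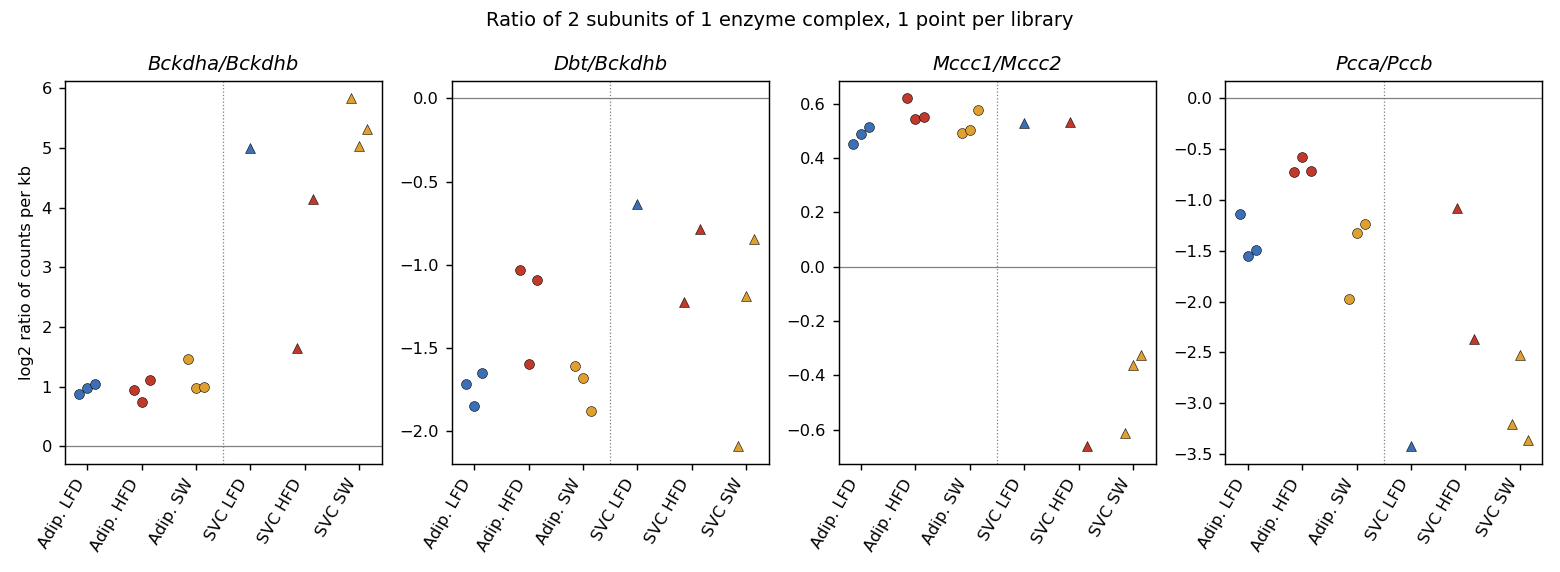
Log2 ratio of counts per kb (vertical axis) of 2 subunits of 1 complex in each of the 15 libraries, by fraction and diet, with circles for adipocytes and triangles for SVCs. *Pcca*/*Pccb* in HFD adipocytes (-0.72 to -0.58) lies above LFD and SW adipocytes, and *Bckdha*/*Bckdhb* is between 0.74 and 1.46 in adipocytes and between 1.65 and 5.83 in SVCs.

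Other genes of the pathway were read from a list of 22. In HFD against LFD adipocytes 11 of 22 were lower and 4 higher, with a median of -0.41, against 25% and 26.5% of all genes tested. The falls were greatest for *Aldh6a1* (methylmalonate semialdehyde dehydrogenase, valine branch, -1.26, adjusted p = 0.00172), from 333 ± 86.8 CPM in LFD to 139 ± 29.8 in HFD (SD, n = 3), *Ppm1k* (the phosphatase that activates BCKDH, -1.20, adjusted p = 0.0007996) and *Acadsb* (short/branched-chain acyl-CoA dehydrogenase, -1.07, adjusted p = 0.000428). The rises were greatest for *Bcat1*, the cytosolic aminotransferase (1.18, adjusted p = 0.00269), and for the amino acid transporters *Slc7a5* (0.88, adjusted p = 0.0267) and *Slc7a8* (0.76, adjusted p = 0.000966). *Bcat1* and *Bcat2*, the 2 aminotransferases, thus moved in opposite directions, *Bcat1* at a low level of 6.14 ± 2.20 CPM in LFD and 13.9 ± 2.12 CPM in HFD. The same HFD libraries had 11 of 11 macrophage markers higher and 8 of 10 adipocyte markers lower than LFD. The part of such shifts in the changes of these 22 genes, in HFD or after the switch, was not tested. *Bckdk*, the kinase that inactivates BCKDH and was named after its value was seen, was lower in HFD than in LFD (-0.38, adjusted p = 0.04301) and higher in SW than in HFD (0.43, adjusted p = 0.0421).

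In SW against HFD adipocytes 5 of 22 were higher and 1 lower, against 15.6% and 15.9% of all genes tested. The rises were led by *Ppm1k* (0.96, adjusted p = 0.00873), *Aldh6a1* (0.70, adjusted p = 0.0455) and *Mmaa* (0.62, adjusted p = 0.01996), a cobalamin-handling protein of the propionate end. *Slc7a8* alone was lower (-0.52, adjusted p = 0.0154). Against LFD, SW differed in *Acadsb* only (-0.69, adjusted p = 0.0142), where 6.18% of all genes tested were lower and 10.9% higher. With HFD and SW together against LFD, 10 of 22 were higher in LFD and 3 lower, against 19.4% and 20.7% of all genes tested. Those higher were led by *Aldh6a1* (0.91), *Acadsb* (0.88) and *Hibch* (0.76, 3-hydroxyisobutyryl-CoA hydrolase). The 3 lower were *Bcat1* (-0.92), *Slc7a8* (-0.50) and *Hlcs* (-0.42), which attaches biotin to the carboxylases. For comparison, of 21 tricarboxylic acid cycle and pyruvate entry genes 5 were lower and 0 higher in HFD against LFD (median -0.25). Of 17 fatty acid oxidation genes 7 were lower and 2 higher (median -0.21). Over all genes tested these shares were 25% lower and 26.5% higher.

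**Figure D4:**
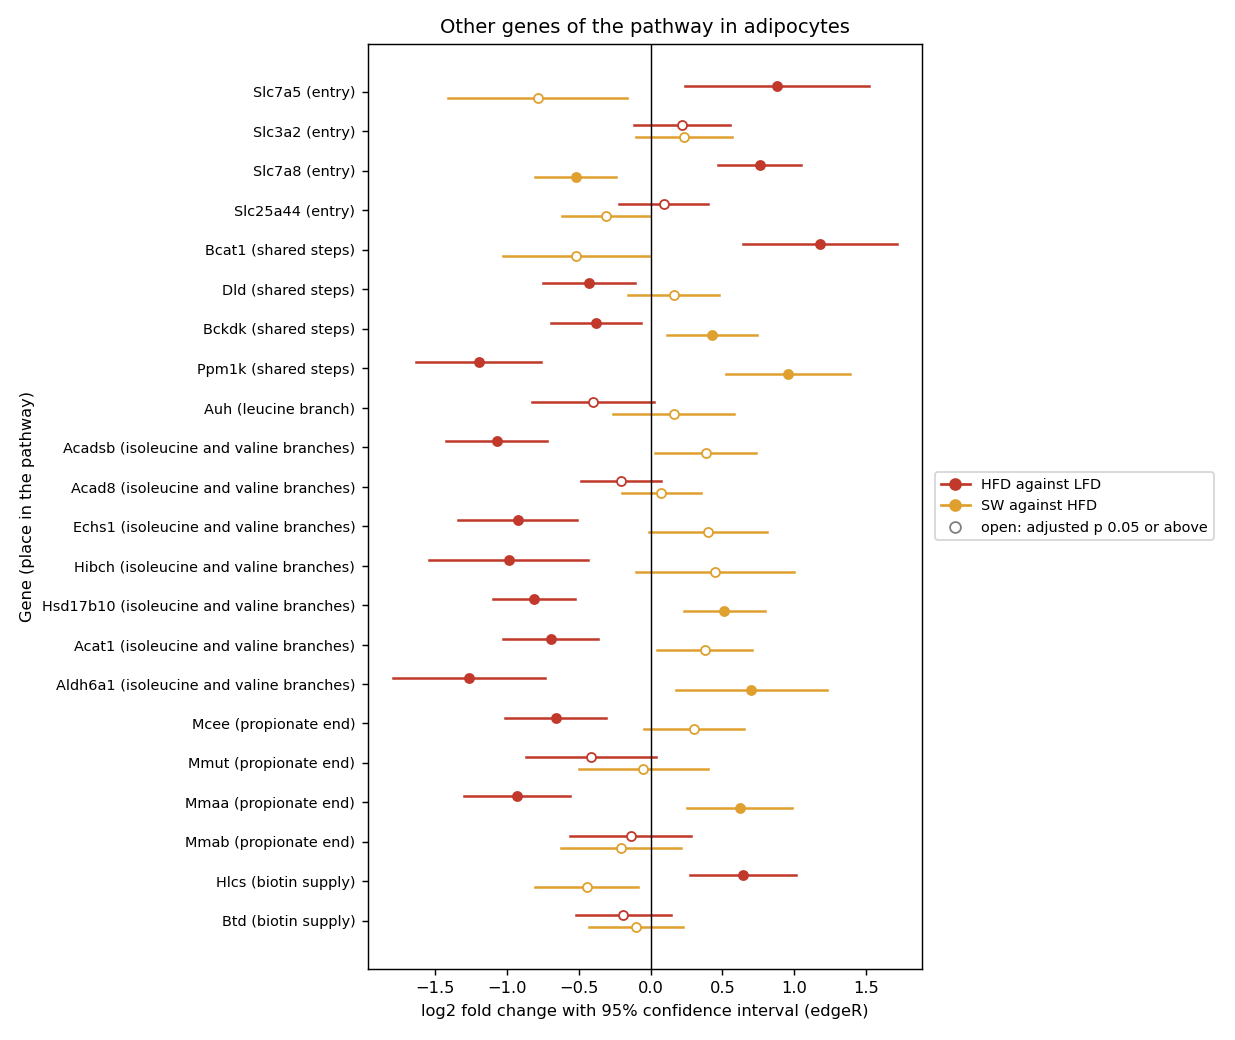
Log2 fold changes with 95% confidence intervals (horizontal axis) in adipocytes for the 22 other genes of the pathway, ordered by their place in it, for HFD against LFD and SW against HFD. Filled points have an adjusted p under 0.05, with 11 below and 4 above 0 for HFD against LFD.

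In SVCs the genes had differences of either sign, as did all genes tested, and few passed the test. Of the 10 genes, 1 was higher in SW than in HFD SVCs, *Ivd*, and 0 were lower, where 5.71% of the 16319 genes tested were higher and 11.7% lower. The median was 0.01, against 0.03 over all genes tested, with changes of either sign beneath it. *Ivd* was at 24.6 and 25.0 CPM in the HFD libraries 212 and 411 and at 46.8, 40.9 and 46.9 CPM in the SW libraries 412, 413 and 414, and the LFD library 236 was at 67.4 CPM. The difference of 0.85 (SE 0.20, adjusted p = 0.0423) was of the size seen in adipocytes, but the call was lost with limma-voom (adjusted p = 0.0506), with a correction for GC content (0.145) and on leaving out HFD library 212 or any SW library (0.0774 to 0.171).

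Like *Ivd*, *Bcat2*, *Bckdha* and *Pccb* had every SW library above every HFD library in SVCs (28.5% of all genes tested did), without being called. *Bckdha* was at 36.1 and 83.0 CPM in HFD, 143, 109 and 112 CPM in SW and 130 CPM in the LFD library, a difference of 1.03 (95% interval 0.10 to 1.96, adjusted p = 0.0948). *Bcat2* was at 52.2 and 98.2 CPM in HFD, 129, 111 and 126 CPM in SW and 121 CPM in LFD, and *Pccb* at 29.4 and 44.4, at 57.9, 49.8 and 56.4, and at 78.9 CPM. In these genes HFD library 212 was the lower of its pair. *Bckdhb* and *Dbt*, which share the BCKDH complex with *Bckdha*, had the opposite sign. The 4 genes with SW above HFD had the highest GC content of the set, from 51.1% (*Ivd*) to 58.3% (*Bcat2*). The other genes lay between 42.1% (*Dbt*) and 51.0% (*Mccc2*), and of these only *Hibadh* (47.3%) had a difference above 0. With GC correction 0 of the 16319 genes tested were called, and the part of base composition in these differences was not tested.

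*Bckdhb* was at 8.93 and 3.66 CPM in HFD SVCs, 1.96, 2.60 and 2.19 CPM in SW and 3.14 CPM in LFD, from counts of 18 to 154 per library. Its difference was -1.47 (95% interval -2.67 to -0.27, adjusted p = 0.0766). *Dbt* was at 8.58 and 4.76 CPM in HFD, 1.03, 2.56 and 2.74 CPM in SW and 4.54 CPM in LFD, from counts of 10 to 148, with a difference of -1.65 (-2.97 to -0.33, adjusted p = 0.0738). Every SW library was below every HFD library for these genes and for *Mccc2*, as for 30% of all genes tested. Both became called when only genes with at least 10 counts in every library were tested (adjusted p = 0.0428 and 0.0411). Under that filter, which *Dbt* met with 10 counts in SW library 412, 21% of all genes were called lower, against 11.7% without it. Neither was called with GC correction.

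The remaining genes had no call in SVCs. *Mccc1* was at 13.1 and 6.00 CPM in HFD, 5.77, 6.65 and 6.57 CPM in SW and 13.1 CPM in LFD, and *Mccc2* was between 7.12 and 8.21 CPM in all 6 libraries. *Pcca* was at 15.5 and 9.59 CPM in HFD, 7.01, 9.67 and 6.13 CPM in SW and 8.21 CPM in LFD, and *Hibadh* at 40.9 and 52.1, at 51.3, 38.3 and 64.5, and at 30.7 CPM. The differences were -0.59 for *Mccc1* (0.15 without HFD library 212), -0.12 for *Mccc2*, -0.72 for *Pcca* and 0.14 for *Hibadh*. Which HFD library was used decided much of the SVC result, over the 10 genes and over all genes. Without library 411, the one rich in mitochondrial reads, 7 of 10 genes were called (*Bcat2*, *Bckdha*, *Ivd* and *Pccb* higher, *Bckdhb*, *Dbt* and *Mccc1* lower), with the remaining HFD library assumed to vary like the SW libraries, where 39.1% of all genes were called in either direction. Without library 212 the count was 0, and 3.21% of all genes were called. The summed adipocyte markers were 1290 CPM in library 212, 994 CPM in library 411 and 583 to 890 CPM in SW SVCs, on the joint scale. Gene by gene, 1 of the 10 adipocyte markers was called higher in SW than in HFD SVCs and 1 lower. Their median log2 fold change was 1.15, so the median and the sums went in opposite directions. Markers of epididymal epithelium, a neighbouring tissue, summed to 190 CPM in library 411 against 9.18 CPM in library 212 and 7.71 to 12.0 CPM in SW SVCs, and their part in these differences was not tested. Of the 22 other pathway genes 4 were lower in SW SVCs and 1 higher, against 11.7% and 5.71% of all genes tested. Those lower were *Ppm1k* (-2.18), *Hibch* (-1.90), *Dld* (-1.78, the E3 subunit of BCKDH) and *Mmut* (-1.74, methylmalonyl-CoA mutase), and *Btd* was higher (1.19, biotinidase). *Ppm1k* and *Hibch* rest on low levels, 0.825 to 0.992 and 1.10 to 1.94 CPM in SW SVCs. In HFD SVCs they were at 3.31 to 5.22 and 4.21 to 7.88 CPM.

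Between fractions, most of the set was higher in adipocytes, and its first enzyme and *Bckdha* were not called. With all libraries scaled together, 8 of 10 genes were higher in adipocytes than in SVCs of SW mice and 0 lower, against 32.8% and 35.6% of the 17441 genes tested, and 8 of 10 were higher in HFD mice and 0 lower, against 12.9% and 16.2%. The median log2 difference of the 10 genes was 1.71 in SW and 1.53 in HFD mice, against -0.09 and -0.08 over all genes. The 10 adipocyte markers were all higher in adipocytes in both diets, with medians of 4.35 and 4.33. Of 11 macrophage markers 9 were lower in adipocytes in SW mice (median -1.42) but only 2 in HFD mice (median -0.81), and 0 were higher. Endothelial markers were mostly higher in adipocytes, 4 of 6 in both diets, with 1 lower in SW and 0 in HFD mice. The part of other cells in the fraction differences was not tested. Of the 22 other pathway genes, 14 were higher in SW adipocytes and 6 lower, with *Hibch* (5.14), *Aldh6a1* (4.15) and *Dld* (3.54) at one end and *Slc7a5* (-3.14), *Slc7a8* (-2.15) and *Btd* (-1.16) at the other. *Hibch* was at only 1.10 to 1.94 CPM in SW SVCs, scaled within the fraction. In HFD mice 9 were higher and 2 lower, with *Hibch* (2.95), *Aldh6a1* (2.83) and *Mmut* (1.86) against *Slc7a5* (-1.09) and *Slc7a8* (-0.86).

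The widest gap was that of *Bckdhb*, with 36.0, 55.7 and 58.1 CPM (both fractions scaled together) in SW adipocytes and 2.30, 3.18 and 2.61 CPM in SW SVCs, an 18.1-fold difference (log2 4.18, SE 0.35, adjusted p = 5.75e-07). *Dbt* followed, with 26.4, 39.1 and 35.5 CPM against 1.21, 3.13 and 3.27 CPM (12.9-fold, log2 3.69, adjusted p = 8.54e-07). No SVC library came near an adipocyte library for either gene. *Mccc1* was 9.18-fold, *Pcca* 5.35-fold, *Mccc2* 4.74-fold, *Hibadh* 2.26-fold, *Ivd* 2.11-fold and *Pccb* 1.89-fold higher in SW adipocytes, all with adjusted p of 0.00142 or below. In HFD mice the order was *Mccc1* (5.36-fold), *Bckdhb* (4.395-fold), *Pcca* (3.95-fold), *Dbt* (3.81-fold), *Mccc2* (3.68-fold), *Ivd* (2.27-fold), *Hibadh* (2.24-fold) and *Pccb* (1.86-fold), with *Pccb* no longer called without adipocyte library 402 (adjusted p = 0.0502) or SVC library 212 (0.0685). Of the 10 genes, 7 were higher in HFD adipocytes without SVC library 212 (18.8% of all genes) and 9, with *Bckdha* (0.95, adjusted p = 0.0485) added, without library 411 (7.75%). The log2 difference was 2.82 without library 212 and 1.69 without library 411 for *Bckdhb*, 3.00 and 2.03 for *Mccc1*, 2.33 and 1.64 for *Dbt*, and 0.57 and 1.32 for *Pccb*, so that the order among these genes was not stable.

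*Bcat2* was at 145, 138 and 159 CPM in SW adipocytes and 152, 135 and 151 CPM in SW SVCs on the same joint scale, a log2 difference of 0.01 (95% interval -0.51 to 0.53). *Bckdha* was at 127, 142 and 149 CPM against 169, 134 and 134 CPM, a difference of -0.06 (-0.69 to 0.57). In HFD mice the differences were -0.16 (-0.74 to 0.42) for *Bcat2* and 0.12 (-0.58 to 0.82) for *Bckdha*. Neither interval holds the gap of *Bckdhb*. Both values changed with a correction for base composition. Their principal transcripts have the highest GC content of the set, 58.3% and 57.9%, where the other 8 lie between 42.1% (*Dbt*) and 51.3% (*Pccb*). With that correction both were called higher in SW adipocytes, by 1.14 (adjusted p = 0.000324) and 1.06 (adjusted p = 0.00240), while *Hibadh*, at 0.45, was not (adjusted p = 0.144).

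**Figure D5:**
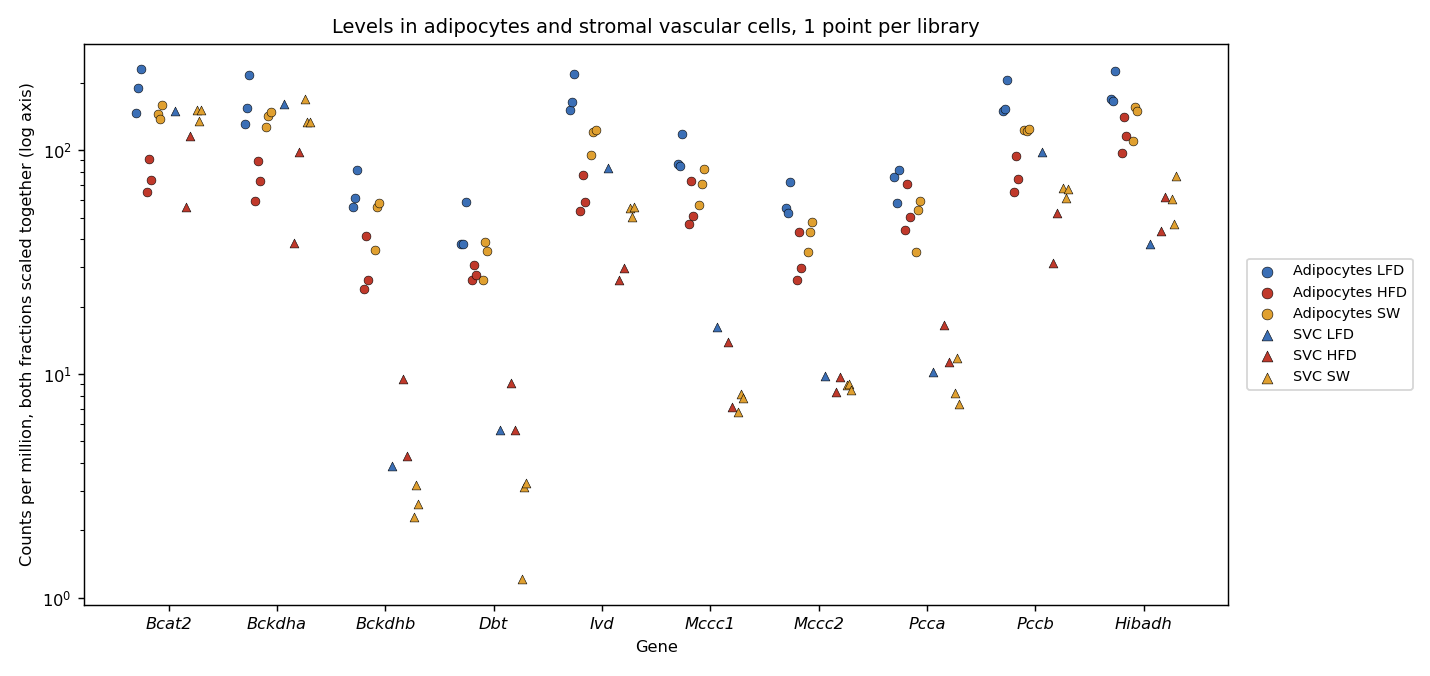
CPM on a log axis, with both fractions scaled together, of the 10 genes in all 15 libraries, with circles for adipocytes, triangles for SVCs and colours for diets. *Bckdhb* and *Dbt* in SW SVCs (1.21 to 3.27 CPM) are the lowest points of the plot, and *Bcat2* and *Bckdha* overlap between the fractions of SW mice.

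In counts without GC correction, the transcripts of the BCKDH subunits stood in different proportion in the fractions. Per kb, *Bckdha* exceeded *Bckdhb* by 1.67 to 2.75 times in the 9 adipocyte libraries. In SVCs the ratio was 32.0 in the LFD library, 3.14 and 17.6 in HFD and 56.8, 32.6 and 39.6 in SW. *Mccc1* to *Mccc2* was 1.44 in the LFD library, 1.45 in HFD library 212, 0.632 in HFD library 411 and 0.654, 0.778 and 0.798 in SW. The ratios in SVCs were not tested, and HFD library 212 was the SVC library closest to adipocytes in *Bckdha* to *Bckdhb*. The principal transcripts of *Bckdha* and *Bckdhb* have GC contents of 57.9% and 50.2%, and no ratio was computed with GC correction.

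The response to the switch was called different between fractions for 2 of the 10 genes, *Bckdhb* and *Dbt*, a share near that of all genes tested, of which 15.7% were called in this direction and 11.4% in the other. SW against HFD gave *Bckdhb* 0.72 in adipocytes and -1.47 in SVCs, and the difference between these log2 changes was 2.04 (SE 0.47, adjusted p = 0.00733). For *Dbt* it was 1.76 (SE 0.45, adjusted p = 0.0117). Neither was called without SVC library 212 (1.34 with adjusted p = 0.0777, and 1.36 with adjusted p = 0.0716). Without library 411 they were 2.57 and 2.14, and *Mccc1* was called as well (1.26, adjusted p = 0.0117), with 21.9% of all genes called in this direction. With GC correction *Dbt* was not called (0.57, adjusted p = 0.324). For the other 8 genes the difference was not called, with *Ivd* at -0.10 (95% interval -0.70 to 0.49) and *Mccc1* at 0.78 (-0.05 to 1.597). Of the 22 other pathway genes, 7 differed in the same direction, led by *Ppm1k* (3.00), *Hibch* (2.19) and *Dld* (1.82), and 4 in the other, led by *Slc7a5* (-2.05), *Slc25a44* (-1.41, the mitochondrial carrier of these amino acids) and *Btd* (-1.39). The values of *Ppm1k* and *Hibch* rest on low levels in SW SVCs, 0.825 to 0.992 and 1.10 to 1.94 CPM, scaled within the fraction.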

How the data were processed

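Poly(A) RNA of adipocytes and SVCs was sequenced by the study. The authors deposited 1 table of expected counts per gene for each fraction, and the values are whole numbers. The submitters' processing notes name Bowtie2, RSEM, limma and mm9, with no versions. Deposited columns were tied to a group only by the group named in the column header. 15 columns were used, and 3 other value columns, whose headers match no label, were not used. The 26 sample records include single and paired-end runs, which the columns do not separate, so read type could not be checked as a batch. The titles of SW samples say low fat diet, and their treatment label gives the switch.

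Counts were analysed in R 4.3.3 with edgeR 4.0.16 (low counts removed by filterByExpr at 10, scaling by TMM, robust quasi-likelihood F test, Benjamini-Hochberg adjustment, threshold 0.05) in 3 fits: adipocytes (9 libraries, 14461 genes), SVCs (6 libraries, 16319 genes) and both (15 libraries, 17441 genes). Transcript lengths and GC content are those of GENCODE M21 principal transcripts, for 37607 of 39017 identifiers. Subunit ratios were tested with scipy 1.17.1. The fits and the ratio test were run on simulated data with known changes and a uniform spread. This checked the arithmetic, and not how calls hold under the spread of these libraries. Alternatives were DESeq2 1.42.0, limma-voom (limma 3.58.1), other scaling factors and filters, leaving out mitochondrial and hemoglobin genes, GC correction (loess over GC content, span 0.3), fits restricted to the 2 groups at hand, and omission of 1 library at a time. Replicates differed by more than sampling noise (chi-square per degree of freedom 13.7 to 408).

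The genes, the other lists and the tests were chosen with earlier results of these data known. All 10 genes are named by the rule. From the 22 other pathway genes the 3 largest rises and falls among those called are named, and of other genes the 5 nearest to the mean profile. 1 further gene of the pathway list is not reported here. Sequences are from RefSeq (GRCm38.p6).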

Additional observations from a re-analysis of the deposited data

Results flagged for a closer look

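2 results were singled out because a tested difference between the fractions passed the threshold. This is 2 of 10 genes, where 27.1% of all genes tested passed in either direction. The change of *Bckdhb* from HFD to SW differed between adipocytes and SVCs by 2.04 on the log2 scale (edgeR, adjusted p = 0.00733): SW against HFD was 0.72 in adipocytes and -1.47 in SVCs. For *Dbt* the difference was 1.76 (adjusted p = 0.0117), from 0.27 in adipocytes and -1.65 in SVCs. Both rest on SVC HFD library 212, where *Bckdhb* had 154 and *Dbt* 148 counts, against 53 and 69 in library 411, and neither was called without it. That library also had the lowest hemoglobin share of the 6 SVC libraries, 0.287% of counts. No group held the 4 libraries that a test for a single distant library needs.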

How the results depend on the processing

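The HFD to LFD difference in adipocytes kept its sign in all 10 genes under every setting tried, and leaving out 1 library gave 7 to 9 calls (5757 to 8331 over all genes). Leaving out 1 library gave 2 to 6 calls in SW against HFD (1522 to 4554 over all genes, fewest without HFD library 403), 0 to 1 in SW against LFD (1678 to 2587), 4 to 10 in LFD against HFD and SW (4069 to 6542), 0 to 7 in SVCs (0 to 6213) and 0 to 3 for the difference between fractions (2936 to 6622). In SVCs 0 of all genes were called by edgeR without SW library 412 or 413, and 0 with GC correction. With DESeq2, SW against LFD gave 2 calls (21.2% of all genes), the second being *Pccb* (-0.46, adjusted p = 0.0431). The count in SVCs was 2 with DESeq2 (33.3% of all genes) and 3 with at least 10 counts in every library (29.6%). It was 0 with limma-voom (10.5%) and with GC correction (0%). The count for the difference between fractions was 1 with GC correction (12.2%).

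These values changed sign. Over left-out libraries, SW against HFD ranged for *Pcca* in adipocytes from -0.28 to 0.053, and in SVCs for *Mccc1* from -1.04 to 0.15 and for *Hibadh* from -0.053 to 0.33. The fractions in HFD mice differed by -0.60 to 0.47 for *Bcat2* and -0.41 to 0.95 for *Bckdha*, and in SW mice by -0.047 to 0.14 and -0.11 to 0.16. The difference between fractions ranged for *Bcat2* from -0.36 to 0.61, for *Bckdha* from -0.91 to 0.35, for *Ivd* from -0.21 to 0.073, for *Pccb* from -0.31 to 0.35 and for *Hibadh* from -0.16 to 0.27, and the log2 *Bckdha* to *Bckdhb* ratio in HFD against LFD from -0.12 to 0.061.

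*Bcat2* between fractions in SW mice was -0.052 with DESeq2, -0.052 with RLE and -0.029 with upper-quartile scaling. The difference between fractions was, for *Pccb*, -0.038 with DESeq2, -0.0089 with limma-voom and -0.037 with RLE, and for *Hibadh* -0.043 with DESeq2 and with RLE. GC correction gave 0.49 for *Bcat2* in HFD mice and 1.06 for *Bckdha* in SW mice between fractions, and 0.29 for *Bckdha*, 0.036 for *Ivd*, -0.10 for *Pcca* and -0.43 for *Hibadh* for the difference between fractions. The cause was not tested.

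Upper-quartile scaling moved the median of all genes in HFD against LFD to -0.12, and in the fraction comparisons to -0.18 (HFD) and -0.13 (SW). The counts of 10 to 154 behind *Bckdhb* and *Dbt* in SVCs limit those values. Low levels of *Ppm1k* and *Hibch* in SW SVCs likewise limit the differences given for them. No paired analysis was possible because the library numbers of the count tables are in no label.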
